A study of Mus musculus with 6 samples.

Results

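A group of 58 genes had clearly stronger signals in the superficial masseter, which closes the jaw, than in the tibialis anterior, which lifts the foot. They were chosen from the measured values themselves. A probe set, which is a group of short probes for 1 transcript, was taken when its lowest masseter signal was at least 60 and at least 1.5 times its highest tibialis anterior signal, and when it carried 1 gene symbol. Both thresholds were met by 79 of 20380 probe sets with 1 symbol, or 0.388%, and by 77, or 0.378%, with the muscles exchanged. Solute carriers, potassium, sodium and chloride channels, collagens, Hox genes, myosin heavy chains and 17 further named genes were set aside, which removed 18 of the 79 probe sets. The remaining 61 probe sets represent 58 of the 12393 genes named on the array. Because the choice used the difference between the muscles, every value that sets the muscles side by side for these genes is a description and carries no test.

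The masseter samples came from normal adult female C57Bl/6 mice aged 6 months, and so did the tibialis anterior samples; no treatment, transgene or deletion is given for either. There were 3 samples of each muscle, with 1 array per sample, and the study set a chewing muscle against a limb muscle. The deposited value is a signal intensity in arbitrary units, scaled to a 2% trimmed mean of 150.1 on every array. Separate mice are not stated for the samples of either muscle, so their spread may be technical in part. Muscle fibre markers, all 10 of 10 above the low-signal level, summed to between 127216 and 156429 in masseter and between 159536 and 162461 in tibialis anterior. These sums did not overlap (exact permutation p = 0.1, the smallest possible, adjusted p = 0.267). Of the 10 markers limma called 1, Actn3, lower in masseter and 0 higher (log2 difference -0.88, adjusted p = 0.0342). In a whole muscle, fewer cells of a type and less RNA per cell cannot be told apart.

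Skeletal muscle holds fibres together with fibroblasts, vessels, nerve, resident macrophages and fat, and RNA from all of them enters 1 extract. Jaw-closing muscles derive from the head mesoderm of the branchial arches, whereas limb muscles derive from the somites, and the transcription factors that set up muscle differ between these origins. Several of the genes below are known from cells other than fibres: Toll-like receptors and their adaptors signal in macrophages and other cells that sense microbial products, Ebf1 acts in B lymphocytes and adipocytes, and the procollagen enhancers are secreted by fibroblasts.

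**Figure D1:**
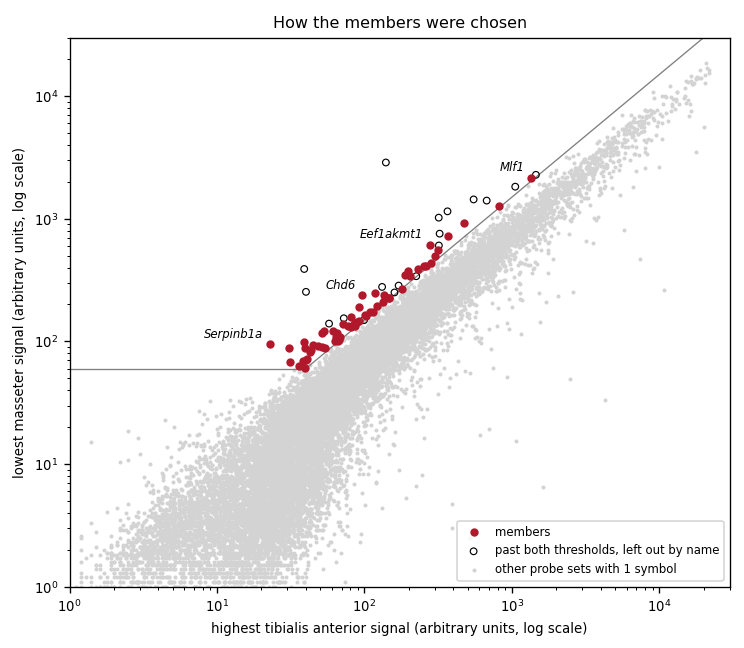
Each point is a probe set with 1 gene symbol, with its highest tibialis anterior signal on the horizontal axis and its lowest masseter signal on the vertical axis, both on log scales in arbitrary units and starting at 1. Lines mark a lowest masseter signal of 60 and a ratio of 1.5. The 61 member probe sets are filled red and the 18 left out by name are open circles. Serpinb1a lies farthest above the ratio line among the members and Mlf1 is the brightest.

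The 120 bases before the transcription start are shown for the 4 member genes of highest ratio that have a single promoter in the RefSeq table of build GRCm38.p6: Dpyd at chr3:118562060-118562179 on the plus strand, Chd6 at chr2:161109087-161109206 on the minus strand, Btbd2 at chr10:80656495-80656614 on the minus strand and Casp12 at chr9:5345356-5345475 on the plus strand. They let the sequence next to the start be read for members far inside the rule. Capitals mark the motif GGGCGG, which GC-box factors bind, on either strand.
Dpyd: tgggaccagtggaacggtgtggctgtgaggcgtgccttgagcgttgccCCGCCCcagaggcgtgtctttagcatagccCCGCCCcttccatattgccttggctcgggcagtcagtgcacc
Chd6: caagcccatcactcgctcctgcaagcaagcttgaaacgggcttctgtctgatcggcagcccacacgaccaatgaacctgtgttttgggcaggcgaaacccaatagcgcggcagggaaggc
Btbd2: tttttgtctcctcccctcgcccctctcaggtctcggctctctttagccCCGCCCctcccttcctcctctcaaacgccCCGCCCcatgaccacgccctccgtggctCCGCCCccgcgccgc
Casp12: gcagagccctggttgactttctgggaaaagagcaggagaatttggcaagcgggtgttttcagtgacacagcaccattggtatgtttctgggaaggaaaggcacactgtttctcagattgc
Of the 58 genes, 46 matched the table, with 62 promoters. Within 250 bases before the start, GGGCGG was found on either strand in 32 of 62 member promoters, or 51.6%, and in 32.7% of all 32851. The median GC content of the same windows was 57.2% for the members and 52.4% for all. The E-box CAGCTG, a sequence bound by myogenic factors, stood in 12 member promoters, or 19.4%, and in 4271 of all 32851; the E-box CACCTG stood in 12.9% of member promoters and 17.2% of all. The motif CATTCC, bound by TEAD factors, was in 9.68% of member promoters and 12.6% of all, and TATAAA was in 6.45% of member promoters and 12.4% of all. GACGTG, a core of hypoxia and cyclic-AMP elements, was in 1 member promoter, 1.61%, and in 5.20% of all. The 32851 promoters were not limited to genes with a signal in muscle, as the members were by the rule. A gene with several promoters was counted for each of them. The shares of the members and of all are thus not matched for signal. A match is a description of the sequence and not a site.

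Over the 58 genes, each read by its brightest member probe set, the log2 difference, masseter minus tibialis anterior, had a median of 1.23. For the 55 genes whose mean in both muscles was above the low-signal level it ran from 0.73 to 2.44. The median over all 13576 probe sets above the low-signal level was 0.02. Most were transcripts of moderate level: the mean masseter signal was under 200 for 33 genes and at least 1000 for 3. All 61 probe sets passed the filter on low signals, a mean log2 level of 4.84 or a signal of 28.6, to which the masseter level chosen by the rule contributes. For 3 genes, Serpinb1a, Dpyd and Hlx, the mean of the tibialis anterior lay under that level, where ratios are imprecise, and their folds are given as bounds against it. With these 3 at their bounds, 42 genes differed at least 2-fold, 14 at least 3-fold and 3 at least 4-fold.

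The genes did not share 1 order among the masseter arrays. The highest masseter signal was on array 1 for 20 genes, on array 2 for 21 and on array 3 for 17. Taken by the sample number in the titles, the median ratio of masseter to tibialis anterior was 2.27, 2.31 and 2.49 in pairs 1, 2 and 3. Within the masseter the highest signal was at least 2 times the lowest for 4 genes and under 1.2 times for 17; within tibialis anterior it was at least 2 times the lowest for 8. With any 1 of the 6 arrays left out, the log2 differences of those 55 genes lay between 0.72 and 2.82, and no fold among them moved by more than 1.48 times. The rule itself keeps every such fold, and every ratio within a pair, at 1.5 or above, so these values do not measure stability. The Serpinb1a fold, computed from its signals as deposited, was 11.3 with all arrays and 6.53 without array 1 of the tibialis anterior (log2 3.50 and 2.71), and only its bound is used below.

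**Figure D2:**
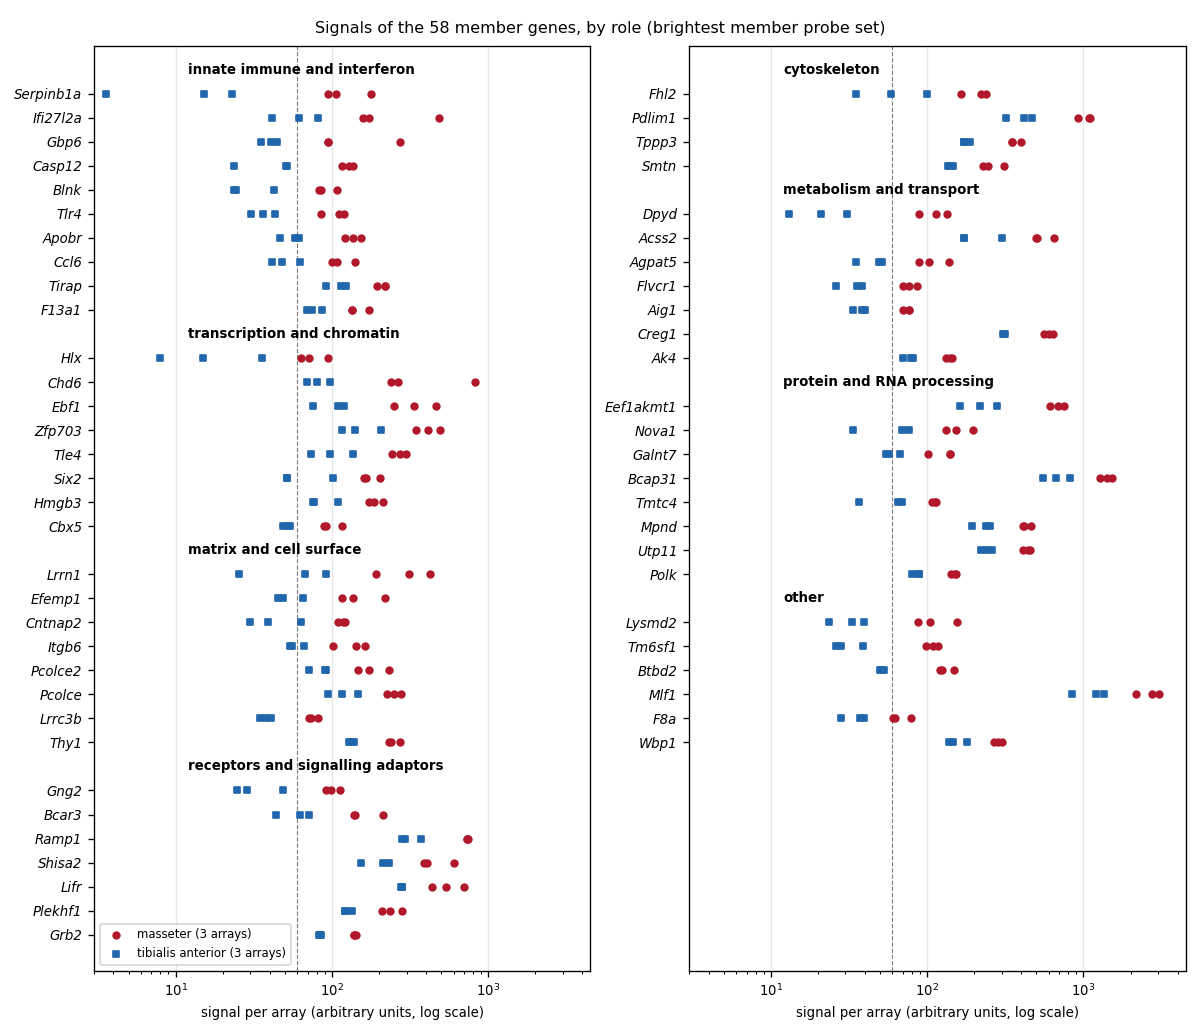
Signal of the 58 member genes on each array (arbitrary units, log scale), 1 row per gene, grouped by role and sorted by log2 difference within a role. Red circles are the 3 masseter arrays and blue squares the 3 tibialis anterior arrays; the dashed line marks a signal of 60. Chd6, Gbp6 and Ifi27l2a each have 1 masseter array far above the others, while Grb2 and Thy1 have closely spaced arrays in both muscles.

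Genes of innate immunity and interferon response made up 10 of the 58, with log2 differences from 0.93 to 2.00 in the 9 other than Serpinb1a and a median of 1.58. Serpinb1a, an inhibitor of neutrophil serine proteases, had signals of 94.5, 177.2 and 106.2 in masseter, against 3.6, 15.1 and 22.8 in tibialis anterior. It averaged 126 ± 44.8 in masseter and 13.8 ± 9.66 in tibialis anterior (SD, n = 3 each). Serpinb1a was at least 4.23-fold stronger in masseter. It had the widest gap of all members, with a lowest masseter signal 4.14 times the highest tibialis anterior signal. That tibialis anterior signal, 22.8, is itself under the low-signal level, so the ratio of 4.14 is imprecise. Its other probe set, under the low-signal level, overlapped, with signals of 8, 41.4 and 22.5 in masseter, against 8.3, 25.3 and 30.6 in tibialis anterior.

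Members of the Toll-like receptor pathway were among them. Tlr4, the receptor for bacterial lipopolysaccharide, had signals of 119.4, 85.4 and 111 in masseter, against 30.3, 43.2 and 36.4 in tibialis anterior, a log2 difference of 1.52. A further probe set of Tlr4 had a difference of 1.05, again with all masseter signals above all tibialis anterior signals. Tirap, the adaptor that recruits the signalling complex to this receptor, averaged 209 ± 14 in masseter and 109 ± 15.9 in tibialis anterior (SD, n = 3 each), a difference of 0.94. Of the other Toll-like receptors on the array 3 were measured above the low-signal level, and limma called 0 of them in either direction, with 0 at an unadjusted p under 0.05.

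Casp12, a caspase of the endoplasmic reticulum linked to stress and inflammation, had signals of 116.3, 129.3 and 136.6 in masseter, against 50.5, 51.2 and 23.5 in tibialis anterior. Its log2 difference was 1.69, whereas the gene's other probe set above the low-signal level had 0.44 with no overlap between the muscles. Blnk, an adaptor below the B cell receptor, had signals of 107.2, 84.5 and 82.5 in masseter, against 42.5, 24.4 and 23.6 in tibialis anterior, a difference of 1.64. The scavenging receptor Apobr, which takes up lipoproteins in macrophages, had 137, 153.3 and 120.5 in masseter, against 58.1, 61.6 and 46.8 in tibialis anterior, a difference of 1.31. Each of the 3 genes was higher on every masseter array than on any tibialis anterior array, as the rule requires.

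The interferon-induced genes differed from these in their spread. Gbp6, a guanylate-binding GTPase, had signals of 271.8, 94.1 and 94.4 in masseter, against 40.7, 44.8 and 35 in tibialis anterior. Ifi27l2a, a small membrane protein, had 480.5, 158.3 and 172.3 in masseter, against 81.2, 41.6 and 61.2 in tibialis anterior. In both, array 1 of the masseter stood far above the others. The log2 differences were 1.75 for Gbp6 and 2.00 for Ifi27l2a with all arrays, and 1.24 and 1.48 without that array. Other interferon genes did not pass: limma called 0 of 8 measured genes of the interferon and complement list, with 1 at an unadjusted p under 0.05 and a median difference of -0.05. It also called 0 of 3 Gbp relatives and 0 of 4 Ifi relatives, with 0 at an unadjusted p under 0.05 in either family and median differences of 0.14 and -0.07. The chemokine Ccl6 averaged 116 ± 21.3 in masseter and 50.6 ± 11.1 in tibialis anterior (SD, n = 3 each). F13a1, the transglutaminase subunit of coagulation factor XIII, averaged 147 ± 22.2 in masseter and 76.7 ± 9.14 in tibialis anterior (SD, n = 3 each).

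Markers of cells that could carry these transcripts were summed on each array. The salivary gland list, with 16 of 18 genes on the array, summed to 64046, 8151 and 3396 on masseter arrays 1, 2 and 3, against 6064, 3478 and 2559.5 on tibialis anterior arrays 1, 2 and 3. Array 1 of the masseter, which was highest for Gbp6 and Ifi27l2a, was also highest for this list. The B and plasma cell list, with 6 of 8 genes on the array, summed to 533, 388 and 235 in masseter, against 336, 327 and 161 in tibialis anterior. The macrophage list, with 10 of 10 genes, ran from 1005 to 1332 in the masseter and from 721 to 1124 in tibialis anterior, so the groups overlapped. The T cell list, with 6 of 8, ran from 69.4 to 97.7 in the masseter and from 93.2 to 110.6 in tibialis anterior, and Cd3d, Cd3e, Cd3g and Cd4 were under the low-signal level on all arrays. Exact two-sided permutation tests over samples gave p = 0.3 for the salivary, 0.4 for the B and plasma cell, 0.3 for the macrophage and 0.2 for the T cell list, 4 of 16 lists tested, with adjusted p of 0.4, 0.427, 0.4 and 0.4. Of 9 salivary genes above the low-signal level limma called 3, Pip, Smr3a and Chia1, higher and 0 lower (adjusted p = 0.0113, 0.0266 and 0.00455), and these calls ended without the replicate block. All 3 overlapped between the muscles. On masseter array 3 Pip, Smr3a and Chia1 had 24.2, 42.1 and 24.6, against 72.4, 376.1 and 126.4 on tibialis anterior array 1. All 3 are among the names the rule sets aside, although these masseter signals were too low for the rule. Smr2, the largest part of the sum on masseter array 3, ran mostly the other way and overlapped. It had 1010.4, 1185.4 and 2123.3 in masseter, against 2548, 2063 and 1848.5 in tibialis anterior. The smallest p that 3 samples against 3 allow is 0.1. The part of these cells in the immune signals was not tested.

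**Figure D3:**
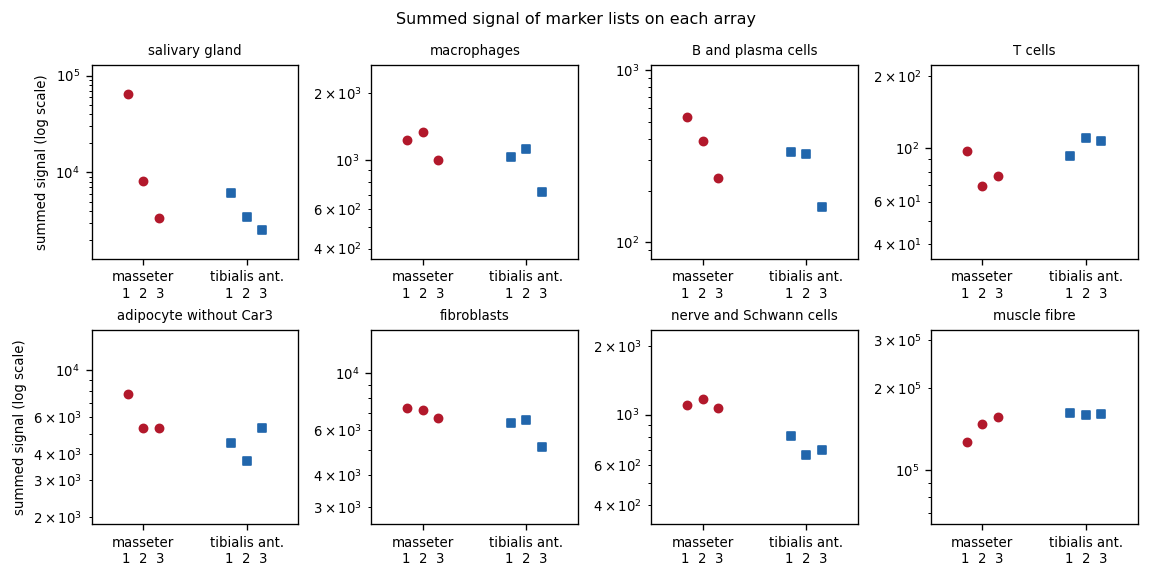
Summed signal of 8 marker lists on each array (arbitrary units, log scale), with masseter arrays 1 to 3 at the left of each panel as red circles and tibialis anterior arrays 1 to 3 at the right as blue squares. The salivary list is highest on masseter array 1, at 64046. The nerve and Schwann cell list, mostly Mbp and Pmp22 by signal, is higher on all masseter arrays than on any tibialis anterior array.

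Regulators of transcription and chromatin made up 8 genes, with log2 differences from 0.93 to 2.19 in the 7 other than Hlx and a median of 1.44 with Hlx at its bound. Chd6, a chromatin remodelling helicase, had signals of 237.4, 266.3 and 818.1 in masseter, against 69.6, 80.2 and 96.7 in tibialis anterior. Array 3 of the masseter was far above the others, and the log2 difference of 2.19 became 1.63 without it. Hlx, a homeobox factor, had signals of 71.8, 63.6 and 94 in masseter, against 35.9, 7.9 and 15 in tibialis anterior, and was at least 2.64-fold stronger in masseter.

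Ebf1 was read by 2 member probe sets. The brighter had signals of 248.2, 332.4 and 463.4 in masseter, against 118.5, 108.9 and 75.8 in tibialis anterior, a log2 difference of 1.76. The other had 190.2, 259.8 and 173.7 in masseter, against 82.5, 102.8 and 114.1 in tibialis anterior, a difference of 1.05. A further Ebf1 probe set that the rule did not take had a difference of 1.11 with no overlap between the muscles. The related Ebf2 had a difference of 0.47 ± 0.25 (SE, limma adjusted p = 0.493) and Ebf3 one of -0.07 ± 0.22 (SE, limma adjusted p = 0.935), so neither passed. Because Ebf1 acts in fat and B cells, the adipocyte list is set beside it, with 9 of its 12 genes on the array. Without Car3, which muscle fibres also express, it summed to 7755, 5286 and 5303 in masseter, against 4519.8, 3702 and 5284 in tibialis anterior. With Car3 the sums ran the other way, from 8814 to 12554 in the masseter and from 17443 to 22361 in tibialis anterior. Without Car3 the lowest masseter sum, 5286, nearly met the highest tibialis anterior sum, 5284. In limma Adipoq and Scd1, both set aside by name, passed as higher in masseter and Car3 as lower. The calls of Adipoq and Scd1 ended without the replicate block. Scd1 overlapped between the muscles, with 1617.8, 1029.4 and 487.5 in masseter, against 542.6, 622.7 and 203.4 in tibialis anterior. Fabp4, the largest part of the sum without Car3, overlapped too, as did Retn, Lep, Pparg and Lipe. Adipoq and Cidec were higher on every masseter array. The part of fat cells in the Ebf1 signal was not tested.

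Six2, a homeobox factor of mesenchymal progenitors, had signals of 164.6, 160.8 and 203.8 in masseter, against 101.7, 51.2 and 51.7 in tibialis anterior, a difference of 1.44. Tle4, a corepressor of the Groucho family, had 274.1, 241.1 and 297.2 in masseter, against 73, 97.8 and 136.2 in tibialis anterior, a difference of 1.45. Zfp703, a zinc-finger repressor, averaged 414 ± 73.5 in masseter and 154 ± 45.8 in tibialis anterior (SD, n = 3 each). For these 3 factors the muscles were apart by between 1.58 and 1.77 times at their nearest arrays. The chromatin protein Hmgb3 averaged 191 ± 20.2 in masseter and 87.4 ± 19.3 in tibialis anterior (SD, n = 3 each). Cbx5, a heterochromatin protein that reads histone methylation, averaged 98.6 ± 15.2 in masseter and 51.4 ± 2.76 in tibialis anterior (SD, n = 3 each). Of its other probe sets above the low-signal level, 1 overlapped between the muscles and 1 did not. Of 22 Sox, Klf, Nr4a and related homeobox factors listed beside Six2, 12 were measured, limma called 0 in either direction and 4 had an unadjusted p under 0.05, with a median difference of 0.06.

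Matrix and cell surface proteins accounted for 8 genes, with log2 differences from 0.90 to 2.44 and a median of 1.14. Lrrn1, a leucine-rich repeat membrane protein of neurons, had signals of 420.5, 311.8 and 192.3 in masseter, against 67.2, 91.5 and 25.6 in tibialis anterior, a difference of 2.44. Efemp1, an extracellular matrix fibulin, had 137, 219.2 and 116.3 in masseter, against 45.4, 64.8 and 48.4 in tibialis anterior, a difference of 1.54. Cntnap2, which gathers potassium channels beside the nodes of myelinated axons, averaged 116 ± 6.05 in masseter and 44.2 ± 17.4 in tibialis anterior (SD, n = 3 each). The other probe sets of Cntnap2, both under the low-signal level, overlapped between the muscles, with differences of -1.32 and -0.66.

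Both members of the procollagen C-endopeptidase enhancer family, which speed the trimming of fibrillar procollagens, were in the group. Pcolce averaged 250.1 ± 26.3 in masseter and 119 ± 25.8 in tibialis anterior (SD, n = 3 each), and Pcolce2 averaged 183 ± 42.8 in masseter and 84.6 ± 11.4 in tibialis anterior (SD, n = 3 each). Their log2 differences were 1.09 for Pcolce and 1.10 for Pcolce2, and the second Pcolce probe set had 0.60 with no overlap. Thy1, a surface glycoprotein of fibroblasts, neurons and T cells, averaged 247 ± 21.9 in masseter and 133 ± 4.66 in tibialis anterior (SD, n = 3 each). Itgb6, an integrin chain of epithelia that releases latent TGF-beta, had signals of 101.1, 162.3 and 142 in masseter, against 54.2, 66.6 and 55.8 in tibialis anterior. The other Itgb6 probe set, under the low-signal level, overlapped between the muscles, with a difference of -0.42. Lrrc3b, a further leucine-rich repeat membrane protein, averaged 75.3 ± 5.23 in masseter and 37.7 ± 3.2 in tibialis anterior (SD, n = 3 each).

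The fibroblast list summed to 7329, 7157 and 6681 in masseter, against 6359.7, 6569 and 5158 in tibialis anterior, and the nerve and Schwann cell list to 1100, 1168 and 1072 in masseter, against 802, 663 and 699 in tibialis anterior. Neither list overlapped between the muscles, with an exact permutation p = 0.1 for each, the smallest possible, and an adjusted p of 0.267. All 10 fibroblast genes were above the low-signal level, and limma called 2, Dpt and Cd34, higher in the masseter and 0 lower. Pdgfra was also higher on every masseter array. Col1a1 was lower on every one, at 57.8, 55.1 and 39.5 in masseter, against 118.9, 67 and 217.1 in tibialis anterior. Dcn, the largest part of the sum, overlapped between the muscles, as did Lum, Fbln1, Pi16, Col3a1 and Col1a2. Cd34 itself meets both thresholds and was set aside by name, and its call held in 5 of 9 alternatives, that of Dpt in 7 of 9. Of the nerve and Schwann cell list, 7 of 10 genes were on the array, limma called 0, and Nefm was under the low-signal level on all arrays. Mbp and Pmp22 made up most of this sum and were higher on every masseter array. Mag, S100b, Nefl, Nefm and Sox10 overlapped between the muscles. For Sox10 the signals were 55.4, 75.6 and 34.8 in masseter, against 82, 47.8 and 55.8 in tibialis anterior. The epithelial list ran from 391 to 799 in the masseter and from 352 to 445 in tibialis anterior, with its highest sum on masseter array 1 (exact permutation p = 0.2, adjusted p = 0.4). The part of these cells in the matrix and surface signals was not tested.

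Receptors and signalling adaptors made up 7 genes, with log2 differences from 0.73 to 1.63 and a median of 1.22. Ramp1, the partner that turns the calcitonin-receptor-like protein into a receptor for the nerve peptide CGRP, had signals of 725.3, 744.1 and 735.5 in masseter, against 293.7, 371.2 and 278.9 in tibialis anterior. Its masseter arrays were nearly level, and its log2 difference was 1.24. The related Ramp2 averaged 209.6 ± 40.8 in masseter and 196 ± 29.6 in tibialis anterior (SD, n = 3 each), a difference of 0.09 (limma adjusted p = 0.904).

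Bcar3, an adaptor that binds the docking protein Cas, had signals of 212.4, 139.8 and 137.9 in masseter, against 71, 62.1 and 43.8 in tibialis anterior, a difference of 1.47. Gng2, a G-protein gamma subunit, had 91.8, 98.3 and 112.7 in masseter, against 24.7, 48.3 and 28.5 in tibialis anterior, a difference of 1.63. Both were moderate in level, and their muscles were apart by 1.94 and 1.90 times at the nearest arrays. Lifr, the receptor of leukaemia inhibitory factor, averaged 556 ± 131 in masseter and 279 ± 3 in tibialis anterior (SD, n = 3 each). Shisa2, which retains Wnt and FGF receptors in the endoplasmic reticulum, averaged 466 ± 121 in masseter and 199 ± 40.6 in tibialis anterior (SD, n = 3 each). The endosomal protein Plekhf1 averaged 241 ± 36 in masseter and 125 ± 7.54 in tibialis anterior (SD, n = 3 each).

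Grb2, the adaptor that couples receptor tyrosine kinases to Ras, had the smallest difference of the group, at 0.73, with signals of 141.7, 138 and 138.3 in masseter, against 85.5, 82.4 and 84 in tibialis anterior. Arrays of a muscle lay very close together for this probe set. The gene's other probe set, an alternative read of the transcript, overlapped between the muscles with a difference of 0.20. Of the 3 measured relatives of Grb2, limma called 1, Grb14, which was among the genes set aside by name, higher in the masseter. Grb14 averaged 867 ± 154 in masseter and 298 ± 22.4 in tibialis anterior (SD, n = 3 each), with limma adjusted p = 0.0033.

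Cytoskeletal proteins accounted for 4 genes, with log2 differences from 0.88 to 1.80. Pdlim1, a PDZ and LIM domain protein that binds alpha-actinin, was next in brightness after Mlf1 and Bcap31, with signals of 1087.3, 1102.1 and 921.5 in masseter, against 469.7, 320.8 and 415.6 in tibialis anterior. Its log2 difference was 1.38. The other probe sets of Pdlim1, both under the low-signal level, overlapped between the muscles, with differences of 0.48 and -1.49. Of 5 measured relatives limma called 0 higher and 1 lower: Pdlim3, a Z-disc protein, averaged 1866 ± 377 in masseter and 3350.03 ± 665 in tibialis anterior (SD, n = 3 each), a difference of -0.84 ± 0.13 (SE, adjusted p = 0.0254). The Pdlim3 call ended without the replicate block (adjusted p = 0.0755) and held in 6 of 9 alternatives. Pdlim5 had a difference of 0.04 ± 0.11 (SE, limma adjusted p = 0.925) and did not pass.

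Tppp3, which promotes microtubule polymerisation, had signals of 395.7, 347.1 and 347 in masseter, against 173.4, 173.2 and 188 in tibialis anterior, a difference of 1.03. Fhl2, a LIM-only coactivator abundant in heart, averaged 209 ± 38.1 in masseter and 64.7 ± 33.2 in tibialis anterior (SD, n = 3 each). Its relatives Fhl1 and Fhl3 had differences of -0.29 ± 0.11 and 0.77 ± 0.42 (SE) and did not pass (limma adjusted p = 0.341 and 0.497). Smtn, an actin-binding protein of contractile smooth muscle, averaged 260.3 ± 44.1 in masseter and 141 ± 4.69 in tibialis anterior (SD, n = 3 each). The smooth muscle and pericyte list summed the other way, from 8137 to 8612 in the masseter and from 8877 to 9690.4 in tibialis anterior (exact permutation p = 0.1, the smallest possible, adjusted p = 0.267), and its part in the Smtn signal was not tested.

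Metabolic and transport proteins accounted for 7 genes, with log2 differences from 0.85 to 1.39 in the 6 other than Dpyd. Dpyd, the enzyme that starts the breakdown of uracil and thymine, had signals of 133.2, 88.4 and 114.2 in masseter, against 21.1, 30.7 and 13 in tibialis anterior, and was at least 3.86-fold stronger in masseter. A second Dpyd probe set, under the low-signal level on average, also had all masseter signals above all tibialis anterior signals. The member probe set can read more than 1 transcript, as its suffix in the array design marks. Of 19 further genes of pyrimidine and purine breakdown 10 were measured, limma called 0 in either direction and 2 had an unadjusted p under 0.05, with a median difference of -0.12.

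Creg1, a secreted and lysosomal glycoprotein, had signals of 635.1, 560.6 and 604.8 in masseter, against 313.8, 310.7 and 306.5 in tibialis anterior, a difference of 0.95. Its second probe set was brighter, with a difference of 0.62 and no overlap. Flvcr1, a haem and choline transporter, had 76.2, 69.7 and 85.9 in masseter, against 35.5, 26.2 and 38.5 in tibialis anterior, a difference of 1.22. Acss2, which makes acetyl-CoA from acetate in cytosol and nucleus, averaged 549 ± 87.2 in masseter and 216 ± 74.8 in tibialis anterior (SD, n = 3 each). A second Acss2 probe set had a difference of 0.86. The mitochondrial relative Acss1 averaged 352 ± 97.2 in masseter and 195 ± 59.7 in tibialis anterior (SD, n = 3 each), a difference of 0.87 ± 0.18 (SE) that did not pass (limma adjusted p = 0.0709). In log2 difference Agpat5, an acyltransferase of phospholipid synthesis, differed by 1.28, Aig1, a hydrolase of fatty acid esters, by 0.99 and Ak4, a mitochondrial adenylate kinase, by 0.85.

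Proteins that act on RNA, proteins or DNA accounted for 8 genes, with log2 differences from 0.80 to 1.66. Eef1akmt1, a lysine methyltransferase of a translation elongation factor, was read by 4 probe sets that disagree. The brightest had signals of 751.7, 688.2 and 609.7 in masseter, against 219.3, 278.1 and 162.8 in tibialis anterior, a difference of 1.66. A second member probe set had a difference of 1.23, and another, which the rule did not take, had 1.08 with no overlap. The dimmest went the other way, with signals of 41.8, 53.2 and 45.7 in masseter, against 88.5, 79.7 and 79.2 in tibialis anterior, a difference of -0.82. Their transcripts or exons are not told apart here.

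Bcap31, a chaperone of the endoplasmic reticulum membrane, was the second brightest gene, with signals of 1523.1, 1268.1 and 1418.2 in masseter, against 819.5, 665.7 and 553.6 in tibialis anterior, a difference of 1.06. Its second probe set had 0.74 with no overlap. Galnt7, which starts or extends mucin-type sugar chains, was read by 2 member probe sets with differences of 1.09 and 1.81. The first had signals of 102, 140.9 and 140.1 in masseter, against 66.7, 54.6 and 56.8 in tibialis anterior. The dimmer had 68.1, 102.3 and 110.7 in masseter, against 30.3, 31.3 and 19 in tibialis anterior, where its mean was under the low-signal level, so it was at least 3.20-fold stronger in masseter. Nova1, a splicing factor best known from neurons, averaged 160.2 ± 32.2 in masseter and 59.9 ± 23.2 in tibialis anterior (SD, n = 3 each). The others were Mpnd at 0.92, Utp11, a factor of ribosomal RNA processing, at 0.85, Tmtc4, a mannosyltransferase, at 1.02 and the DNA polymerase Polk at 0.80 in log2 difference.

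For the last 6 genes no single role is given here. Mlf1, named for its translocation in myeloid leukaemia, was the brightest of the group, with signals of 2154.4, 2730.6 and 3039.8 in masseter, against 850.1, 1356.1 and 1210.3 in tibialis anterior, a difference of 1.23. Tm6sf1, a membrane protein, had 109, 118.2 and 98.4 in masseter, against 26.3, 28.1 and 38.7 in tibialis anterior, a difference of 1.82. Its second probe set was of similar brightness and overlapped between the muscles, with a difference of 0.57. Lysmd2, a LysM domain protein, had 87.6, 154.8 and 103.8 in masseter, against 23.7, 33.3 and 39.7 in tibialis anterior, a difference of 1.83. Btbd2, a BTB domain protein, had 120.9, 124.2 and 149.3 in masseter, against 50, 50.5 and 53 in tibialis anterior, a difference of 1.36.

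Wbp1 and F8a lay at the edge of the rule. Wbp1 had signals of 269, 282.1 and 299.8 in masseter, against 137.2, 179.1 and 147.4 in tibialis anterior, and a ratio of 1.502 between its nearest arrays. Just inside the ratio limit with it were Itgb6 at 1.52 and a second Ebf1 probe set at 1.52, and just outside were Abhd18 at 1.496, Anxa7 at 1.49 and Clic4 at 1.489. F8a had 78.9, 62.3 and 60.5 in masseter, against 37.4, 28 and 39.7 in tibialis anterior. Its lowest masseter signal of 60.5 was nearest above the limit of 60, followed by Hlx at 63.6 and a Galnt7 probe set at 68.1, while Clec10a at 58.5, Zmym3 at 55.8 and Ccdc85a at 53.5 fell below it. The limits thus cut through a continuous range of values.

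Member genes had 37 further probe sets that the rule did not take, on 28 genes, of which 18 on 16 genes passed the low-signal filter. Among the 18, all masseter signals lay above all tibialis anterior signals for 14, the muscles overlapped for 3, and the order was turned round for 1, a probe set of Eef1akmt1. Over all probe sets kept, 9.21% had every masseter signal above every tibialis anterior signal and 8.63% the reverse. The 18 log2 differences ran from -0.82 to 1.11 with a median of 0.70. These probe sets read the same RNA in the same contrast as the rule, so the counts are a description.

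**Figure D4:**
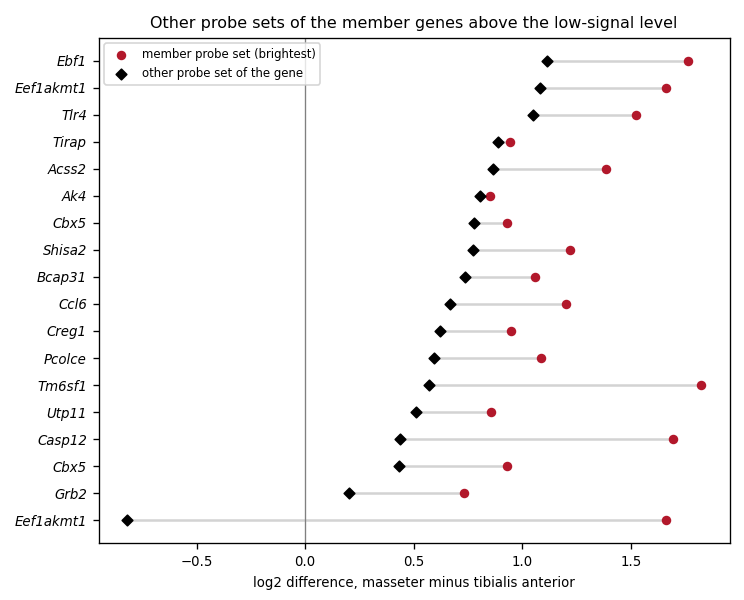
Log2 difference, masseter minus tibialis anterior, for the 18 other probe sets of member genes above the low-signal level (black diamonds) beside the brightest member probe set of the same gene (red circles). The black diamonds run from -0.82 to 1.11, and 17 of the 18 lie above 0.

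Relatives of the member genes were taken by symbol, as genes with the same letters before the first digit, which gave 35 families. Of 119 measured relatives, limma called 1 higher in the masseter, Grb14, and 2 lower, Pdlim3 and Lrrc2, and 116 did not pass. Lrrc2, a leucine-rich repeat protein of heart and muscle, averaged 159 ± 23.5 in masseter and 369 ± 106 in tibialis anterior (SD, n = 3 each), a difference of -1.18 ± 0.17 (SE, adjusted p = 0.0188). Over all 8258 measured genes that are not members, limma called 0.339% higher and 0.666% lower in the masseter, and over all probe sets kept 0.56% higher and 0.619% lower. With the members included, the 8316 genes measured gave 59 higher and 55 lower calls. Without them the 8258 others gave 28 higher and 55 lower, so leaving out the members took away only higher calls. Counts of higher and lower calls among relatives and other genes are therefore not an even comparison of directions. The median difference of the relatives was 0.04, against 0.02 over all genes measured.

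Of all 8316 genes measured, members included, limma called 1.37% in either direction. Across 17 pathway lists, 216 genes beside the members were measured, and limma called 2.78% of them, 1 higher and 5 lower in the masseter. Members, chosen as higher, were left out of these list counts, so they do not compare the directions evenly. The higher one was Rgs2, a regulator of G-protein signalling, with signals of 524.2, 168.5 and 208.6 in masseter, against 139.2, 88.9 and 68.1 in tibialis anterior, a difference of 1.48 ± 0.23 (SE, adjusted p = 0.025). The Rgs2 call ended without the replicate block (adjusted p = 0.151), and masseter array 1 stood above the others. The lower ones were Smox, an oxidase of spermine, at -1.51, Dusp26, a phosphatase, at -1.75, the stress-response gene Gadd45b at -1.43, the cadherin Cdh13 at -0.98 and the cytokine Il15 at -2.35 (adjusted p = 0.00632, 0.0107, 0.0178, 0.0479 and 0.0117). Il15 had signals of 14.4, 35.2 and 17.2 in masseter, so its fold rests on values near background, and its call ended without pair 2 (adjusted p = 0.0843). Cdh13 held in 4 of 9 alternatives, and the Gadd45b call ended without the replicate block (adjusted p = 0.0805). Lists that hold a member gave few calls: of 15 measured protease inhibitors beside Serpinb1a limma called 0, with 4 at an unadjusted p under 0.05, and of 8 leucine-rich repeat and axon guidance genes beside Lrrn1 it called 0, with 2 at an unadjusted p under 0.05. Of 9 measured chemokines and cytokines beside Ccl6, Il15 was the 1 called lower and 0 were higher. In that list 5 had an unadjusted p under 0.05: Ccl9 at 0.80 and Ccl11 at 0.77, and Il15, Csf1 at -0.47 and Cxcl14 at -0.72. Of 5 measured Ccl relatives of Ccl6 limma called 0, with 2 at an unadjusted p under 0.05 and a median difference of 0.54. Of 14 measured S100 proteins and annexins, a list without a member, limma called 0. In that list 8 had an unadjusted p under 0.05, with a median difference of 0.50. Over the 17 lists 57 of 216 genes had an unadjusted p under 0.05, against 1165 of 8316 over all genes measured. Without the intensity trend in limma the calls of Grb14, Lrrc2, Pdlim3, Rgs2, Smox, Dusp26, Gadd45b and Cdh13 all ended, with adjusted p from 0.135 to 0.27.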

How the data were processed

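Each sample's RNA was read on its own short-oligonucleotide array after biotin labelling, per the labels' protocols. What the authors deposited is a linear signal intensity for every probe set. MAS5 and GCOS are the tools named, per the submitters' processing notes, without version or settings. No further scaling was applied, detection calls were not used, and the number of arrays limits precision. Gene symbols came from the platform annotation: of 22690 probe sets, 64 were controls, 20380 had 1 symbol, 691 several and 1555 none. All member symbols matched the current RefSeq table.

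Signals under 1 were set to 1 before log2. Probe sets were kept from the 40th percentile of mean log2 signal, which left 13576 and 8316 named genes. The comparison of genes outside the group used limma 3.58.1 under R 4.3.3 (linear fit and eBayes with intensity trend, two-sided, Benjamini-Hochberg over all probe sets kept, threshold 0.05), each by its brightest probe set. The sample number was a block because the series describes paired comparisons. Same-numbered arrays correlated at 0.04, 0.15 and 0.10 in their deviations from the group means, and different-numbered arrays at -0.16 to 0.05. The same-numbered value was the highest for masseter arrays 2 and 3, but all were small. They do not settle whether the arrays are paired, and the labels do not say that a number marks 1 mouse. The fit was tested on simulated data. Marker sums were compared by exact permutation.

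Members, roles and lists were chosen with earlier results of these data known; roles were assigned after the members were seen. Values per array are given for the 25 genes of highest ratio, the 3 brightest and those next to a threshold; other member genes described this way were chosen after their values were seen, and the rest have means or differences. Genes outside the group were named where they passed the threshold or are relatives of a described member. Alternatives varied the block, trend, filter, offset, normalization, thresholds and arrays. The adipocyte list without Car3, the member values without single arrays and the alternative fits for single genes were added after seeing the data.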

Additional observations from a re-analysis of the deposited data

How the results depend on the processing

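The number of members followed the limits of the rule. It was 61 probe sets as used, 38 with a lowest masseter signal of at least 120, 192 with a looser ratio limit, 12 with a ratio of at least 2 and 124 with the ratio of 1.5 asked only within each numbered pair. Leaving out 1 array, which loosens the rule, gave from 97 to 123, with all 61 kept each time. With quantile normalization 54 of the 61 met the rule. The median log2 difference of the members was 1.23 and became 1.13 with an offset of 16; leaving out 1 array gave 1.23 to 1.27. Over all probe sets limma called 76 higher and 84 lower in the masseter, and 64 and 74 without the replicate block. Without the intensity trend it called 3 higher and 10 lower. For the 17 pathway lists the counts were 1 higher and 5 lower; without the block they were 0 and 4, without the trend 0 and 1, and leaving out 1 numbered pair gave 1 higher and 3 to 4 lower. Without the trend the call of Il15 held, and those of Grb14, Lrrc2, Pdlim3, Rgs2, Smox, Dusp26, Gadd45b and Cdh13 ended. So did those of the marker genes Pip, Smr3a, Chia1, Adipoq, Scd1, Car3, Dpt, Cd34, Actn3 and Thbs4. With the trend Thbs4, a tendon marker, was called lower in masseter (log2 difference -1.65, limma adjusted p = 0.025). In fits that leave out a numbered pair the calls of Cdh13, Il15, Lrrc2, Pdlim3 and Rgs2 ended at least once. The cause of these shifts was not tested. Signals near 28.6 and below lie close to background, which limits the folds of Serpinb1a, Dpyd and Hlx. Bounds were set by the mean alone, and other members had tibialis anterior arrays under 28.6. These were Blnk (24.4 and 23.6), Tm6sf1 (26.3 and 28.1) and Gng2 (24.7 and 28.5). On 1 array each they were Casp12 (23.5), Lrrn1 (25.6), Lysmd2 (23.7), Flvcr1 (26.2) and F8a (28). Their folds are imprecise too.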
